A study of Mus musculus with 32 samples.

Results

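Corticosteroid and corticotropin-releasing factor (CRF) signalling was followed through 9 genes, chosen by name as hormone receptors, their regulators and glucocorticoid target genes. All 9 were found among the 53715 genes of the tables, and all had counts in every library. They are *Nr3c1* and *Nr3c2* (the glucocorticoid and mineralocorticoid receptors), *Hsd11b1* (a glucocorticoid-activating enzyme), *Fkbp5*, *Sgk1* and *Tsc22d3* (glucocorticoid target genes), *Crhr1* and *Crhr2* (CRF receptors) and *Crhbp* (a CRF-binding protein). The RNA-seq data came from amygdala and hippocampus of the same 16 adult male mice, 4 of each genotype, which gave 32 libraries. All were F1 offspring of 129S1/SvImJ *Kmt2a*+/- fathers and C57BL/6 *Kdm5c*+/- mothers. Wild-type mice (WT) were *Kmt2a*+/+, *Kdm5c*+/y. *Kmt2a*-HET mice were *Kmt2a*+/-, *Kdm5c*+/y. *Kdm5c*-KO mice were *Kmt2a*+/+, *Kdm5c*-/y, and double mutants (DM) were *Kmt2a*+/-, *Kdm5c*-/y. KMT2A writes and KDM5C removes methylation of lysine 4 on histone H3. The *Kmt2a* deletion came from a floxed line crossed with a ROSA26 Cre/ERT2 line, and the mutant alleles were inherited, not induced in a cell type. The dissected tissue was homogenised whole, so that fewer cells of a type and less RNA per cell cannot be told apart.

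Corticosterone, the main glucocorticoid of mice, acts in the brain through 2 nuclear receptors. The mineralocorticoid receptor binds it with high affinity and is known for its high level in hippocampal neurons, whereas the glucocorticoid receptor has a lower affinity and is present in most brain cells. HSD11B1 regenerates active glucocorticoid inside cells. FKBP5 is a co-chaperone that lowers hormone binding by the glucocorticoid receptor, SGK1 is a kinase, and TSC22D3 (GILZ) is a leucine zipper protein. CRF and the urocortins signal through CRHR1 and CRHR2, and CRHBP binds CRF and limits its access to them.

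Amygdala libraries held 19215489 to 26033593 gene counts, those of the hippocampus 19322259 to 27798976. Normalised counts of *Kdm5c* over the whole gene ranged in the hippocampus from 1184 to 1410 for *Kdm5c*-KO mice and from 1371 to 1481 for DM mice, against 1463 to 1963 for WT mice. In the amygdala both mutant groups (1199 to 1400 for *Kdm5c*-KO and 1179 to 1313 for DM mice) lay within the WT range of 1177 to 1965. Those of *Kmt2a* overlapped between all genotypes. Counts over the whole gene do not check the deleted exons. Of 7 markers of dentate gyrus and hippocampus, 6 were higher in the hippocampus, whereas of 7 markers of the amygdala 2 were lower and 3 were higher there. All 7 striatal and all 7 hypothalamic markers were higher in the amygdala, where the summed CPM (counts scaled to a common library total) of the striatal list ranged from 260 to 1865 between libraries and those of the hypothalamic list from 86.3 to 396. The hippocampal library of *Kdm5c*-KO mouse 1 held 500 CPM of the striatal and 23.3 of the hypothalamic list, against 86.5 to 132 and 0.472 to 3.61 in the other 15. Summed markers of the choroid plexus, the epithelium that secretes cerebrospinal fluid, ranged from 38 to 4587 CPM in the hippocampus and from 36.4 to 1848 CPM in the amygdala.

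Of the 9 genes, 3 were called in a genotype comparison. *Sgk1* (ENSMUSG00000019970.15) spans chr10:21882184-21999903 on the plus strand of mm10, *Crhr2* (ENSMUSG00000003476.16) chr6:55090049-55133016 on the minus strand and *Hsd11b1* (ENSMUSG00000016194.14) chr1:193221634-193264075 on the minus strand. The 250 bases before a start are given from RefSeq on GRCm38.p6 (mm10), 5′ to 3′ in the direction of transcription, so that the starts of these genes can be compared. *Sgk1* has several starts, and the 3 shown are those of its main 2 transcripts and the one with a full response element. The *Hsd11b1* window precedes a RefSeq start, and no GENCODE M21 transcript starts within it. Capitals mark matches to the palindromic glucocorticoid response element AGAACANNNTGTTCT or to its half-site AGAACA on either strand (TGTTCT), and each full element contains 2 half-sites.
*Sgk1* before the start of transcript Sgk1-202, chr10:21993640-21993889, plus strand: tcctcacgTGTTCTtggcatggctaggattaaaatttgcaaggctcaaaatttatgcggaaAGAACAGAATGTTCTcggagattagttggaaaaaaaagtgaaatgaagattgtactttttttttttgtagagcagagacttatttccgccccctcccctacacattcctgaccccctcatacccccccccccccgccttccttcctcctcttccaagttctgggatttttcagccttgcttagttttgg
*Sgk1* before the start of transcript Sgk1-201, chr10:21994416-21994665, plus strand: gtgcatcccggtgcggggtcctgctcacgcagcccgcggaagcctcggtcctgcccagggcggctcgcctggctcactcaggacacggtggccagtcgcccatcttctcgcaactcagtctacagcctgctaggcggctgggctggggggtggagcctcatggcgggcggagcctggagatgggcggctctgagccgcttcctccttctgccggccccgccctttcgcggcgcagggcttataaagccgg
*Sgk1* before the start of transcript Sgk1-204, chr10:21881934-21882183, plus strand: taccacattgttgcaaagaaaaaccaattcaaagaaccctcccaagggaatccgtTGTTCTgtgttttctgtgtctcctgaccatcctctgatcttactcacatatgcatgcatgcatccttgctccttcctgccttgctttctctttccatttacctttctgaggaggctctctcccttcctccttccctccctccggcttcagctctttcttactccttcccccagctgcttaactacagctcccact
*Crhr2* before the start of transcript Crhr2-201, chr6:55133017-55133266, minus strand: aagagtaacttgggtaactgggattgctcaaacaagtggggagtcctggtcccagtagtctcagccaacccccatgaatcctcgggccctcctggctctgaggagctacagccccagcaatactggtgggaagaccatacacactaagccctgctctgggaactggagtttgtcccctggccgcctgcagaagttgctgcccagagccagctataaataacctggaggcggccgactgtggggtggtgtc
*Hsd11b1*, chr1:193242361-193242610, minus strand: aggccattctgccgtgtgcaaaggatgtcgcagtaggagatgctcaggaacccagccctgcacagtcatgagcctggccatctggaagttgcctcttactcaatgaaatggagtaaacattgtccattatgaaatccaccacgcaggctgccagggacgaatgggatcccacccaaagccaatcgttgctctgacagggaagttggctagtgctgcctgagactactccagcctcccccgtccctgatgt

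The full element was found in 3 of 32851 windows of 300 bases (250 before and 50 from a start), or 0.00913%, and the *Sgk1* window before Sgk1-202 was the only one of 15 windows, from the 8 members with an entry, to hold it. Its match, AGAACAGAATGTTCT, began 189 bases before the start. The half-site alone is common, with 19% of all windows holding it, and was found in 4 windows of the members. The windows before Sgk1-201 and Sgk1-204 also differed in base composition, with 28 and 3 CG dinucleotides against a median of 7 over all windows, and the first had 69.7% G and C. The *Crhr2* and *Hsd11b1* windows had 5 and 6 CG dinucleotides. A match is a run of letters and was not tested as a binding site. *Nr3c1* had no entry.

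Levels were compared between genes as normalised counts per kilobase of exon, averaged over the 16 libraries of a region. In the hippocampus the order was *Nr3c2* (680 ± 151 SD), *Sgk1* (264 ± 57.8), *Nr3c1* (238 ± 35.1), *Tsc22d3* (169 ± 34.5), *Crhbp* (167 ± 31.6), *Fkbp5* (142 ± 32.5), *Hsd11b1* (141 ± 37.0), *Crhr1* (104 ± 27.7) and *Crhr2* (12 ± 6.94). *Nr3c2* stood above the other members, and its lowest library (363) was above the highest library of every member but *Sgk1* (386). Neighbours from *Sgk1* down to *Crhr1* differed by less than the larger of their SDs, except for *Nr3c1* and *Tsc22d3*. In the amygdala *Nr3c1* led with 232 ± 34.7, followed by *Tsc22d3* (207 ± 40.3), *Sgk1* (196 ± 43.9), *Nr3c2* (132 ± 17.8), *Crhr1* (101 ± 11.5), *Crhbp* (93.3 ± 43.8), *Fkbp5* (90.2 ± 9.46), *Hsd11b1* (35.1 ± 11.1) and *Crhr2* (17.5 ± 4.89). There *Nr3c1*, *Tsc22d3* and *Sgk1* lay within the larger SD of their neighbours, as did *Crhr1*, *Crhbp* and *Fkbp5*.

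**Figure D1:**
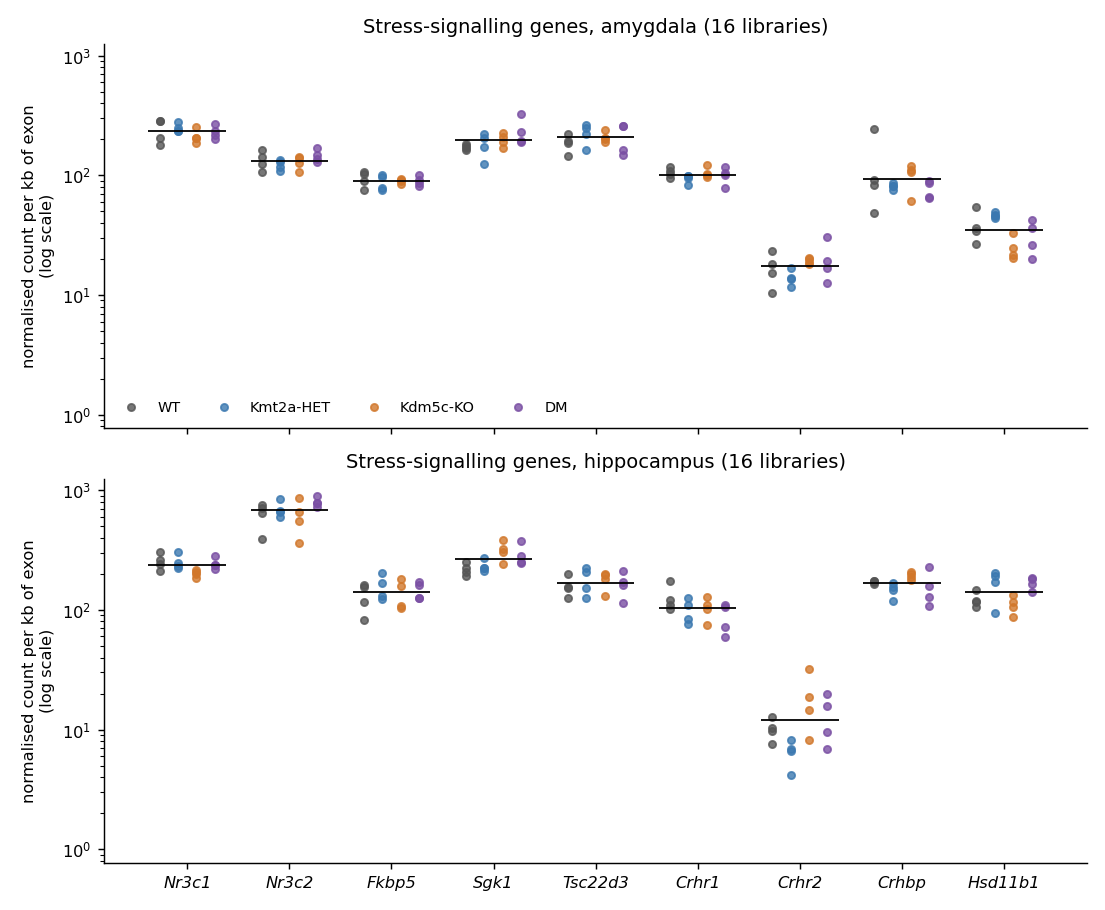
Normalised counts per kilobase of exon (log scale) of the 9 genes in 16 amygdala (top) and 16 hippocampus (bottom) libraries, with points coloured by genotype and bars at the mean of a region. *Nr3c2* is the highest of the 9 in the hippocampus (mean 680) and below 3 others in the amygdala (132), and *Crhr2* is the lowest in both (12 and 17.5).

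More of the 9 genes were called between regions than between genotypes. Of them, 7 differed between hippocampus and amygdala over the mean of the 4 genotypes (DESeq2, adjusted p under 0.1), with 5 higher and 2 lower in the hippocampus. Calls were frequent among all genes in this comparison, with 47% of 23340 genes tested called, 22.7% higher and 24.2% lower. *Nr3c2* and *Hsd11b1* had by far the largest differences of the 9, while *Nr3c1* and *Crhr1* were called in neither direction. The median log2 fold change of the 9 genes was 0.42, against -0.01 over all genes.

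*Nr3c2*, the mineralocorticoid receptor, had normalised counts of 687 to 1087 (median 852) in the 16 amygdala libraries and of 2350 to 5775 (median 4444) in the hippocampus. The regions did not overlap, and all 16 mice had more in the hippocampus, with ratios within a mouse of 2.42 to 7.13 (median 5.27). The log2 fold change was 2.35 ± 0.096 (SE; DESeq2, adjusted p = 1.44e-129). Hippocampal values were 4166, 4894, 4563 and 2527 for WT mice, 3856, 4326, 4291 and 5425 for *Kmt2a*-HET mice, 2350, 5589, 4287 and 3580 in *Kdm5c*-KO, and 5077, 5775, 4658 and 5029 for DM mice. The lowest 2 were those of WT mouse 4 and *Kdm5c*-KO mouse 1, whose libraries also held 316 and 266 CPM of the dentate gyrus and hippocampus list, against 289 to 905 CPM in the other 14. The part of these markers in the spread of *Nr3c2* was not tested.

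*Hsd11b1*, which makes active glucocorticoid from its inert form, was likewise higher in the hippocampus of all 16 mice, with ratios of 2.03 to 7.07 (median 4.42). Normalised counts ranged from 84.9 to 232 (median 149.7) in the amygdala and from 370.4 to 862 (median 583) in the hippocampus, with no overlap. The log2 fold change was 2.02 ± 0.112 (DESeq2, adjusted p = 1.07e-70). *Hsd11b1* overlaps 3 genes in the annotation, among them *Lamb3* on the opposite strand. The library kit keeps strand, but the strand setting of the counting is not given in the sources used here.

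The 3 glucocorticoid target genes did not share a direction. *Fkbp5* rose from 715 to 1004 (median 854) in the amygdala to 774 to 1933 (median 1349) in the hippocampus, with 15 of 16 mice higher and a log2 fold change of 0.65 ± 0.096 (DESeq2, adjusted p = 9.86e-11). *Sgk1* was higher in the hippocampus of all 16 mice, by ratios of 1.03 to 2.05 (median 1.32), with a log2 fold change of 0.42 ± 0.088 (DESeq2, adjusted p = 8.32e-06). *Tsc22d3* fell, from 626 to 1149 (median 886) in the amygdala to 498 to 967 (median 726) in the hippocampus, and was lower in 12 of 16 mice. Its log2 fold change was -0.29 ± 0.106 (DESeq2, adjusted p = 0.0175), and turned to 0.30 (adjusted p = 0.34) when the spike-in (ERCC) counts set the scale. On that scale the median of all genes was 0.64 higher in the hippocampus, and *Fkbp5* and *Sgk1* were at 1.23 and 1.0.

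The CRF genes differed among themselves in the same comparison. *Crhbp*, which sequesters CRF, was higher in the hippocampus of 15 of 16 mice, with 193 to 407 (median 306) against 87.2 to 436 (median 151) normalised counts and a log2 fold change of 0.85 ± 0.145 (DESeq2, adjusted p = 2.58e-08). The exception was WT mouse 1, whose amygdala held 436 counts, against 87.2 to 214 in the other 15 amygdala libraries. That library also had the lowest summed level of oligodendrocyte markers, 2394 CPM against 3391 to 7223 CPM, and the highest of microglial markers, 481 CPM against 299 to 379.8 CPM, and their part in the *Crhbp* value was not tested. *Crhr2* was the lowest gene of the set and fell in the hippocampus, from 53.4 to 155 (median 89.7) to 21.2 to 163 (median 49.7) normalised counts, with 13 of 16 mice lower and a log2 fold change of -0.64 ± 0.169 (DESeq2, adjusted p = 0.000587). With spike-in scaling *Crhbp* was at 1.49 (adjusted p = 3.32e-07), and the *Crhr2* difference was -0.01 (adjusted p = 0.975), or -0.65 relative to the median of all genes.

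No difference between the regions was called for the receptors *Nr3c1* and *Crhr1*. Amygdala libraries held 1377 to 2202 normalised counts of *Nr3c1* against 1420 to 2347 in hippocampal ones, and the 95% interval of its log2 fold change ran from -0.11 to 0.17 (DESeq2, adjusted p = 0.77). *Crhr1* had 194 to 301 and 147 to 428 counts, with an interval from -0.16 to 0.22 (DESeq2, adjusted p = 0.84). With spike-in scaling both were called higher in the hippocampus, at 0.74 each (adjusted p = 0.00787 and 0.0201), which was 0.095 and 0.10 above the median of all genes.

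**Figure D2:**
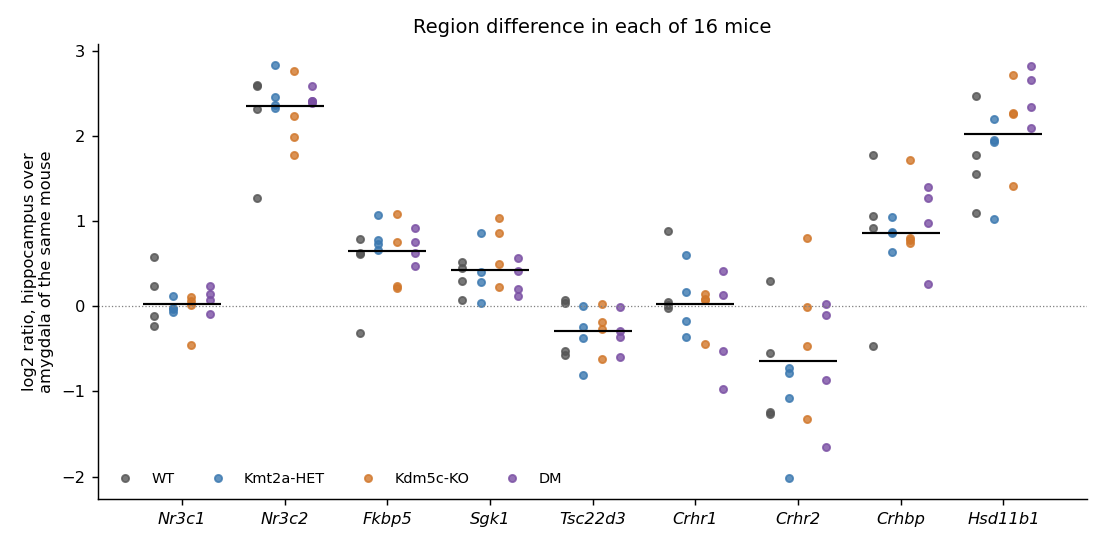
Log2 ratio of the normalised count in the hippocampus to that in the amygdala of the same mouse for the 9 genes, 1 point per mouse coloured by genotype, with bars at the fitted mean over the 4 genotypes. *Nr3c2* (bar at 2.35) and *Hsd11b1* (2.02) lie above 0 in all 16 mice, and *Crhr2* (-0.64) and *Tsc22d3* (-0.29) lie mostly below.

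Within single genotypes, with 4 mice each, fewer of the 9 genes were called. In WT mice 3 passed (21.6% of all genes tested did), in *Kmt2a*-HET mice 5 (30.2%), in *Kdm5c*-KO mice 5 (23.7%) and in DM mice 4 (27.6%). *Nr3c2*, *Hsd11b1* and *Fkbp5* were called higher in the hippocampus of every genotype. The log2 fold changes of *Nr3c2* were 2.22, 2.5, 2.25 and 2.44 in WT, *Kmt2a*-HET, *Kdm5c*-KO and DM mice, and those of *Hsd11b1* were 1.68, 1.83, 2.16 and 2.42. The *Fkbp5* call in WT was near the threshold (0.47 ± 0.192, DESeq2, adjusted p = 0.0763) and was lost with edgeR (adjusted p = 0.111). In *Kdm5c*-KO it was lost without mouse 2 (adjusted p = 0.201), and with spike-in scaling it was lost in WT and DM mice, at 1.03 and 1.10 (adjusted p = 0.137 and 0.156). With the mouse as a block, which the shared animals allow, WT gained *Sgk1* (0.33, adjusted p = 0.0734) and *Crhbp* (0.82, adjusted p = 0.0127), *Kmt2a*-HET gained *Sgk1* (0.39, adjusted p = 0.0192) and *Tsc22d3* (-0.35, adjusted p = 0.0568), and DM gained *Sgk1* (0.32, adjusted p = 0.0661).

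Whether a mutation altered the difference between the regions was tested directly. None of the 9 genes passed in *Kmt2a*-HET against WT (0% of all genes did), *Kdm5c*-KO against WT (0.0125%) or DM against WT (0.0125%) by DESeq2 or edgeR. Against 570, 639 and 646 of 32039 genes, 0, 0 and 1 of the 9 had an unadjusted p under 0.05. That one was *Hsd11b1*, whose region difference was larger by 0.74 ± 0.316 log2 units in DM than in WT (unadjusted p = 0.0196, adjusted p = 1).

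Across 16 genotype comparisons within a region, 4 calls were made for 3 of the 9 genes, all in comparisons on *Kdm5c*. Calls were few among all genes as well, with 1.01%, 1.65% and 2.39% called in the 3 comparisons concerned. *Sgk1* was higher in *Kdm5c*-KO than in WT hippocampus. *Sgk1* and *Crhr2* were higher in the hippocampus, and *Hsd11b1* lower in the amygdala, of the 8 mice without *Kdm5c* (*Kdm5c*-KO and DM) against the 8 with it (WT and *Kmt2a*-HET). The other 6 genes were called in no genotype comparison.

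*Sgk1* encodes a kinase that acts on ion channels and transporters, and its transcription responds quickly to glucocorticoids. In the hippocampus its normalised counts were 1238, 1017, 1096 and 935 for WT mice, 1326, 1039, 1092 and 1107 for *Kmt2a*-HET mice, 1503, 1577, 1890 and 1196 for *Kdm5c*-KO mice and 1848, 1239, 1219 and 1387 for DM mice. Of the 8 libraries without *Kdm5c*, 5 lay above all 8 with it, and the other 3 overlapped their upper part. The means were 1483 ± 275 (SD, n = 8) and 1106 ± 124, and the log2 fold change was 0.42 ± 0.110 (DESeq2, adjusted p = 0.0126). In this comparison 2.39% of all genes were called, and 1.91% were called higher. The call was kept without any 1 of the 16 libraries, with log2 fold changes of 0.35 to 0.47 and adjusted p-values of 0.00159 to 0.0495, and with edgeR (adjusted p = 0.057). With spike-in scaling, where the median of all genes was -0.14, it was 0.27 and was not called.

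The *Sgk1* difference between *Kdm5c*-KO and WT alone was 0.53 ± 0.155 (DESeq2, adjusted p = 0.0809), the only 1 of the 9 genes called there, against 1.01% of all genes called and 0.829% called higher. This call was lost with edgeR (0.53, adjusted p = 0.241) and with spike-in scaling (0.72 ± 0.476, where the median of all genes was 0.19). It was also lost without WT mouse 2, 3 or 4 or *Kdm5c*-KO mouse 1, 2 or 3, over which adjusted p-values reached 0.451. The highest hippocampal values were those of *Kdm5c*-KO mouse 3 and DM mouse 1. Their libraries held 564 and 45.8 CPM of the choroid plexus list and 282 and 741 CPM of a list of activity-induced genes. The part of the activity-induced genes in these values was not tested. A term for the choroid plexus list, added after the data had been seen, left *Kdm5c* loss at 0.45 (adjusted p = 0.0416) and *Kdm5c*-KO against WT at 0.55 (adjusted p = 0.134).

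In the amygdala *Sgk1* was not called for *Kdm5c* loss (0.29 ± 0.131, DESeq2, unadjusted p = 0.0267, adjusted p = 0.52). Its values there were 864, 827, 803 and 890.2 for WT mice, 1007, 849.8, 604 and 1076 for *Kmt2a*-HET mice, 828, 1116, 924 and 1019 for *Kdm5c*-KO mice and 1601, 932, 1121 and 940.4 for DM mice. The groups overlapped, and the highest value, that of DM mouse 1, came from the amygdala library with the most choroid plexus markers (1848 CPM). With the term for these markers, added after the data had been seen, *Sgk1* was not called for *Kdm5c* loss there either. The part of these markers in this single value was not tested.

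Transcript estimates split *Sgk1* mainly into Sgk1-201 and Sgk1-204, whose starts lie behind the CG-rich and the CG-poor window shown above. Sgk1-201 took 62.5% of the *Sgk1* counts in the hippocampus and 51.3% in the amygdala, and Sgk1-204 took 29.9% and 43.0%. In the hippocampus Sgk1-201 had 645 ± 123 normalised counts for WT mice, 704 ± 147 for *Kmt2a*-HET mice, 975 ± 249 for *Kdm5c*-KO mice and 954 ± 279 for DM mice (SD, n = 4 each). The values of Sgk1-204 were 352 ± 46.4, 347 ± 74.0, 444 ± 90.1 and 371 ± 17.4. Transcripts of a gene share reads, so that these are estimates, and they were not tested.

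**Figure D3:**
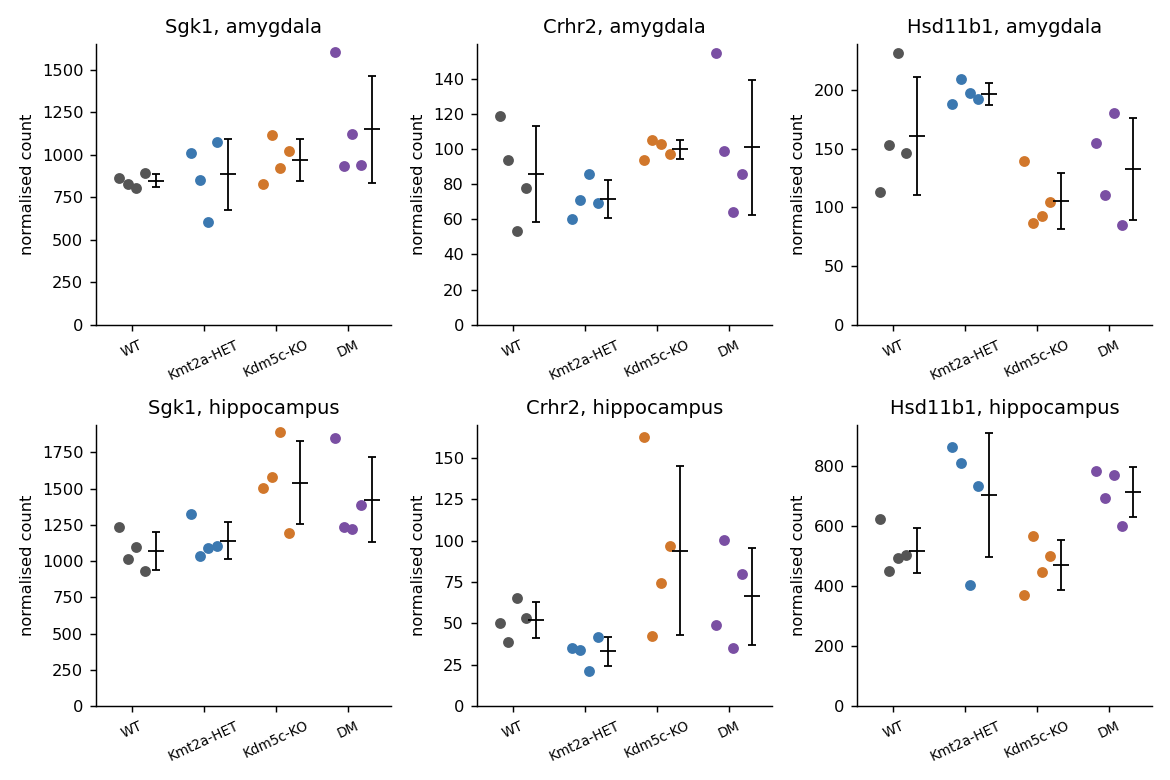
Normalised counts of *Sgk1*, *Crhr2* and *Hsd11b1* by genotype in the amygdala (top) and hippocampus (bottom), 1 point per mouse with the mean and SD of 4 beside them. Hippocampal *Sgk1* averages 1542 for *Kdm5c*-KO mice and 1423 in DM against 1071 in WT, and amygdalar *Hsd11b1* averages 106 and 133 against 161.

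*Crhr2*, the receptor that binds urocortins, was the second gene called for *Kdm5c* loss in the hippocampus. Its normalised counts were 50.3, 38.9, 65.5 and 53.2 for WT mice, 35.0, 33.7, 21.2 and 42.0 for *Kmt2a*-HET mice, 163, 42.2, 74.5 and 96.5 for *Kdm5c*-KO mice and 49.2, 101, 35.2 and 80.0 for DM mice. The log2 fold change was 0.93 ± 0.276 (DESeq2, adjusted p = 0.0461). The 5 libraries above all 8 with *Kdm5c* were those of *Kdm5c*-KO mice 1, 3 and 4 and DM mice 2 and 4, and the remaining 3 overlapped them.

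Those 5 libraries were also among the 6 with the most choroid plexus markers, at 4587, 564, 1130, 1121 and 1142 CPM. The 6th was WT mouse 3 with 1087 CPM, and its *Crhr2* count of 65.5 was the highest of the 8 mice with *Kdm5c*. The remaining 10 hippocampal libraries held 38 to 222 CPM. The library of *Kdm5c*-KO mouse 1 also held the most striatal and hypothalamic markers of the hippocampus, and their part was not tested. The list itself differed with *Kdm5c* loss in the hippocampus, where 5 of its 7 genes were called higher, against 1.91% of all genes. Its median log2 fold change was 2.77, against -0.01 over all genes. None of its 7 genes was at 0 in any hippocampal library. With a term for this list, added after the data had been seen, the *Crhr2* difference was 0.39 ± 0.193 (DESeq2, unadjusted p = 0.0418, adjusted p = 0.997). Since the list itself differed with *Kdm5c* loss, this fit cannot tell marker content and genotype apart. The call was also lost with edgeR (0.93, adjusted p = 0.139) and with spike-in scaling (0.70 ± 0.432). It was lost too without WT mouse 2, *Kdm5c*-KO mouse 1 (0.73, adjusted p = 0.174), DM mouse 2 (0.79, adjusted p = 0.177) or DM mouse 4.

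In the amygdala *Crhr2* had 119, 93.5, 53.4 and 77.9 counts for WT mice, 60.0, 71.3, 85.9 and 69.2 for *Kmt2a*-HET mice, 93.6, 105, 103 and 97.4 for *Kdm5c*-KO mice and 155, 98.8, 64.4 and 86.0 for DM mice, and no genotype comparison was called. The highest value was again that of the library with the most choroid plexus markers, DM mouse 1. The 3 genes whose values followed *Crhr2* most closely over the 32 libraries, with group means removed, were *Pcolce* (r = 0.90), *Igf2* (0.84) and *Sema3b* (0.83), out of 12047 genes compared.

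**Figure D4:**
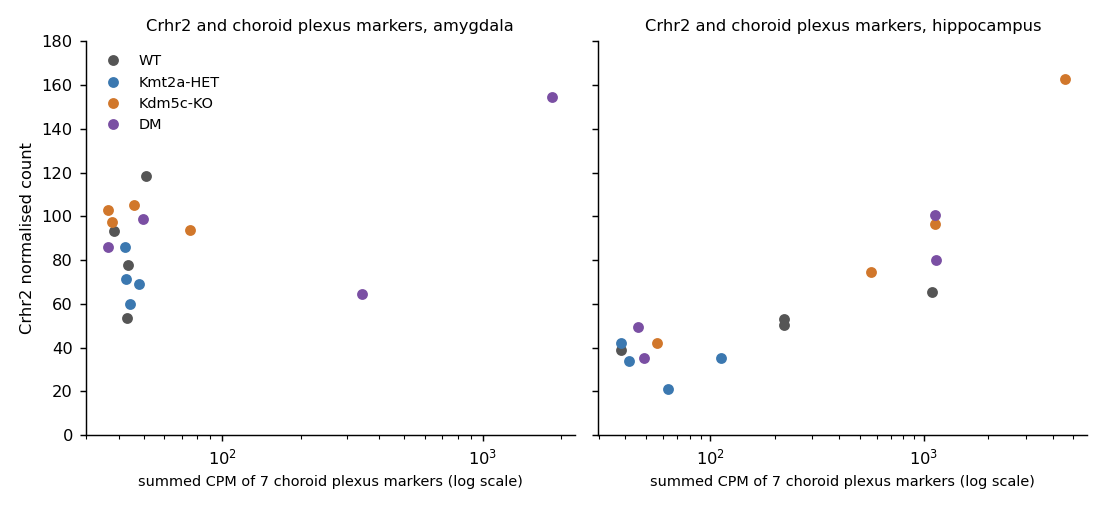
Normalised count of *Crhr2* against the summed CPM of 7 choroid plexus markers (log scale) in the 16 amygdala (left) and 16 hippocampus (right) libraries, coloured by genotype. The hippocampal library with the most markers (4587 CPM, *Kdm5c*-KO mouse 1) has the highest *Crhr2* count there (163). That library also holds the most striatal and hypothalamic markers of the hippocampus.

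*Hsd11b1* was lower in the amygdala of mice without *Kdm5c*. The values were 113, 153, 232 and 147 for WT mice, 188, 209, 198 and 192 for *Kmt2a*-HET mice, 139, 86.2, 92.4 and 105 for *Kdm5c*-KO mice and 155, 110.3, 181 and 84.9 for DM mice. Of the 8 libraries without *Kdm5c*, 5 lay below all 8 with it, and none lay above. The means were 119 ± 35.3 and 179 ± 38.5 (SD, n = 8 each), and the log2 fold change was -0.59 ± 0.171 (DESeq2, adjusted p = 0.0475). In this comparison 1.65% of all genes were called, and 0.275% were called lower. The call was lost with edgeR (-0.58, adjusted p = 0.157) and with spike-in scaling (-0.80 ± 0.320, where the median of all genes was -0.16). It was also lost without any 1 of 8 libraries, namely WT mouse 3, *Kmt2a*-HET mouse 2, 3 or 4, *Kdm5c*-KO mouse 2 or 4 and DM mouse 2 or 4. With the choroid plexus term, added after the data had been seen, the difference was -0.78 (DESeq2, adjusted p = 0.00102). *Hsd11b1* in *Kdm5c*-KO against WT alone was -0.61 and was not called (adjusted p = 0.55).

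No comparison on *Hsd11b1* was called in the hippocampus, although 1 came near. Its values were 622, 448, 494 and 503 for WT mice, 862, 809.9, 402 and 731 for *Kmt2a*-HET mice, 370.4, 566, 446 and 499 for *Kdm5c*-KO mice and 783, 693, 769 and 601 for DM mice. The 8 mice with 1 copy of *Kmt2a* (*Kmt2a*-HET and DM) averaged 706 ± 146 against 494 ± 76.9 in the other 8, and 6 of them lay above all of those. The log2 fold change of 0.52 ± 0.141 did not pass (DESeq2, unadjusted p = 0.000232, adjusted p = 0.124, 0.113% of all genes called). With the replicate number as a block, which raised the calls over all genes from 18 to 178, it passed (0.51, adjusted p = 0.0705). It also passed without WT mouse 1 or 2, *Kmt2a*-HET mouse 3 or *Kdm5c*-KO mouse 2. Without 1 library the adjusted p ranged from 3.54e-05 to 0.735.

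The remaining comparisons gave no call among the 9 genes by DESeq2 or edgeR. In the amygdala these were *Kmt2a*-HET against WT (0.00988% of all genes called), *Kdm5c*-KO against WT (0.751%), DM against WT (0.966%), DM against *Kdm5c*-KO (0.00329%), DM against *Kmt2a*-HET (0.845%), *Kmt2a* dose (0%) and the interaction of both mutations (0.00329%). At an unadjusted p under 0.05 they held 0, 1, 1, 0, 2, 0 and 0 of the 9 genes. Over all genes 926, 1165, 1474, 694, 1360, 887 and 857 of up to 30355 reached that threshold. In the hippocampus they were *Kmt2a*-HET against WT (0%), DM against WT (0.875%), DM against *Kdm5c*-KO (0.0067%), DM against *Kmt2a*-HET (0.603%) and the interaction (0%), with 1, 3, 2, 2 and 0 of the 9 genes at an unadjusted p under 0.05. There 715, 1590, 1352, 1041 and 571 of up to 29841 genes reached it. *Kdm5c*-KO and DM were each compared with the same WT libraries, so that their values against WT are not independent of each other.

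*Nr3c1* in the hippocampus had 1621, 2347, 1874 and 1998 counts for WT mice, 1770, 2328, 1725 and 1877 for *Kmt2a*-HET mice, 1540, 1589, 1420 and 1642 for *Kdm5c*-KO mice and 1834, 1681, 2167 and 1815 for DM mice. The *Kdm5c*-KO range overlapped that of WT only at its upper end, with a log2 fold change of -0.34 ± 0.127 that did not pass (DESeq2, adjusted p = 0.29). *Crhr1* had 297, 270.1, 249 and 428 counts in WT and 272, 177, 258 and 147 in DM hippocampus, and the difference of -0.54 ± 0.240 did not pass either (adjusted p = 0.51). For *Fkbp5* and *Tsc22d3*, as for *Nr3c2*, no comparison between mutants and WT reached an unadjusted p under 0.05. The 95% interval of *Kdm5c* loss in the hippocampus ran from -0.31 to 0.31 for *Fkbp5* and from -0.26 to 0.32 for *Tsc22d3*.

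**Figure D5:**
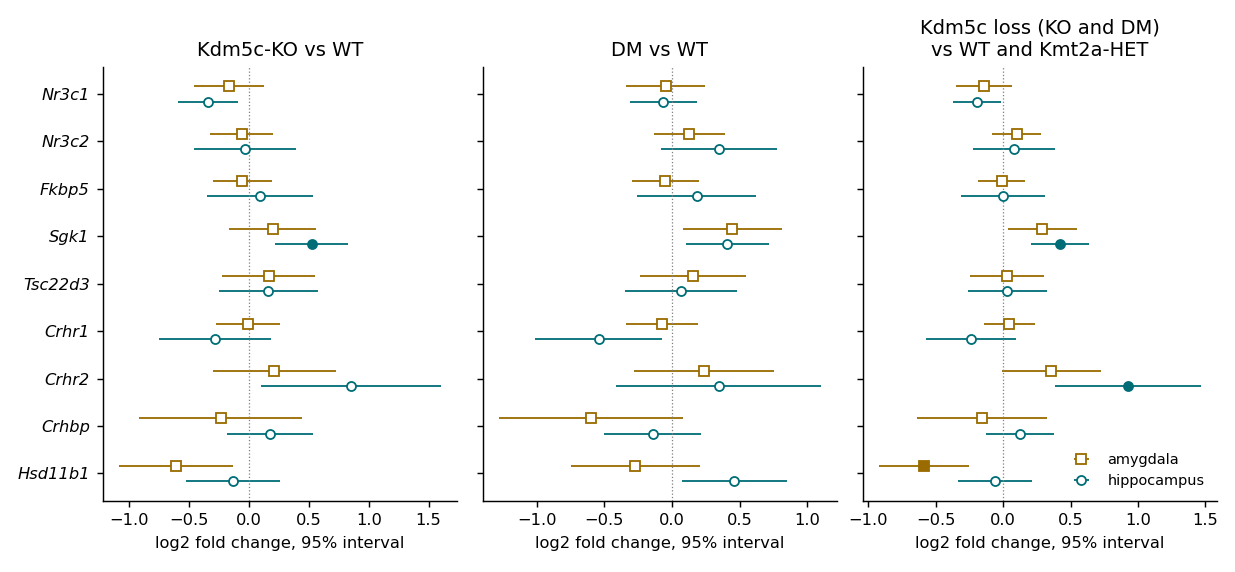
Log2 fold changes with 95% intervals of the 9 genes in *Kdm5c*-KO against WT (left), DM against WT (middle) and mice without against mice with *Kdm5c* (right), in the amygdala (squares) and hippocampus (circles). Filled symbols mark adjusted p under 0.1, which only *Sgk1* in *Kdm5c*-KO hippocampus (0.53) and *Sgk1* (0.42), *Crhr2* (0.93) and *Hsd11b1* (-0.59) for *Kdm5c* loss reached.

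Glucocorticoid target genes can move together when hormone levels differ between mice, so their covariation was examined with genotype means removed (16 libraries per region). *Fkbp5* and *Sgk1* had r = 0.64 and rho = 0.62 in the hippocampus (permutation test, p = 0.0118 and 0.0158, adjusted p = 0.177 and 0.236) and r = 0.57 and rho = 0.55 in the amygdala (p = 0.0273 and 0.0525, adjusted p = 0.205 and 0.341). Without the 2 libraries farthest from the median of *Fkbp5* r was 0.64 and 0.48. *Fkbp5* and *Tsc22d3* had r = 0.089 in the hippocampus and 0.30 in the amygdala (permutation p = 0.755 and 0.327, adjusted p = 0.808 and 0.614), with rho = 0.0088 and 0.34 (adjusted p = 0.979 and 0.538). *Sgk1* and *Tsc22d3* had r = 0.41 and 0.47 (permutation p = 0.161 and 0.182, adjusted p = 0.446 for both), with rho = 0.40 and 0.34 (adjusted p = 0.432 and 0.559). Without the 2 libraries farthest from the median of *Sgk1* these r were 0.17 and -0.20. *Tsc22d3* in the amygdala against the hippocampus of the same mouse had r = 0.55 and rho = 0.55 (permutation p = 0.0708 and 0.0727, adjusted p = 0.354 and 0.341), and r = 0.16 and rho = 0.17 without the 2 libraries farthest from the median. None of the 15 relations computed passed an adjusted p under 0.05, and genes of a library share its depth and composition.

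Other transcript estimates showed how single members are expressed. Nr3c2-204 took 62.3 ± 5.62% of the *Nr3c2* counts in the hippocampus and 46.5 ± 10.3% in the amygdala (SD, n = 16). *Fkbp5* was nearly all Fkbp5-201, with 97.4% and 97.2%, *Crhbp* was nearly all Crhbp-202 (97.8% and 95.9%), and *Crhr1* had a single transcript in the table. *Hsd11b1* was mostly Hsd11b1-201 (83.0% and 93.5%), with Hsd11b1-205 at 16.1% in the hippocampus and 3.66% in the amygdala. The *Nr3c1* split into Nr3c1-203 and Nr3c1-204 varied widely between libraries, with Nr3c1-203 between 31.1 and 91.3% in the amygdala, and was not compared.

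Genes among the 3 most like each member over the 32 libraries, with group means removed, were found for description among 12047 genes. *Nr3c1* was followed by *Kif5b* (r = 0.89) and *Rora* (0.88), and *Nr3c2* by *Gria1* (0.91) and *Trim2* (0.89). *Fkbp5* was followed by *Parp1* (0.84), *Smim3* (0.82) and *Ppp1r13b* (0.81). *Sgk1* was followed by *Enox1* (0.73), *Plin4* (0.70) and *Thap1* (0.69), and *Hsd11b1* by *Aldh1a1* (0.79), *Prickle1* (0.75) and *Kcng4* (0.73). For *Tsc22d3* they were *1700123O20Rik* (0.81), *Amn* (0.79) and *Pex5* (0.77), for *Crhr1* *Cdk2ap1* (0.83), *Fscn1* (0.82) and *Samd10* (0.82), and for *Crhbp* *Tbrg1* (0.84), *Coro1a* (0.84) and *Rtn4rl2* (0.82). The libraries share depth and dissection, and no p is given.

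The wider pathway was described by 6 lists of other genes. Of 36 other glucocorticoid-induced genes, 2 were higher without *Kdm5c* in the hippocampus (*Plin4* and *Fam107a*) and 0 lower by DESeq2, where 1.91% of all genes were called higher. The median log2 fold change over the list was 0.05, against -0.01 over all genes. In the amygdala *Plin4* was the 1 gene of the 36 called, where 1.65% of all genes were called, with a median of 0.07 against -0.01. *Plin4* encodes a lipid droplet coat protein. Its hippocampal counts were 44.4, 64.8, 28.9 and 48.9 for WT mice, 76.8, 77.8, 54.9 and 113 for *Kmt2a*-HET mice, 103, 125, 202 and 88.7 for *Kdm5c*-KO mice and 236, 117, 86.6 and 148 for DM mice. In the amygdala they were 47.4, 57.6, 61.8 and 52.9, then 96.7, 94.3, 50.7 and 148, then 95.8, 127, 190.4 and 89.2, and 257, 90.9, 101 and 130.5. Every *Kdm5c*-KO and DM library lay above every WT library in both regions, while *Kmt2a*-HET overlapped both.

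In the hippocampus *Plin4* differed from WT by 1.47 ± 0.341 in *Kdm5c*-KO and by 1.65 ± 0.340 in DM mice (DESeq2, adjusted p = 0.00498 and 0.000625). For *Kdm5c* loss it was 1.17 ± 0.239 (adjusted p = 0.000229), which held without any 1 of the 16 libraries. Without *Kdm5c*-KO mouse 3 the *Kdm5c*-KO call was lost (adjusted p = 0.111). In the amygdala the values were 1.19 in *Kdm5c*-KO, 1.41 in DM and 0.89 for *Kdm5c* loss (adjusted p = 0.0945, 0.0134 and 0.0286). The first was lost with edgeR (adjusted p = 0.309) and in 7 of 8 fits without 1 library, and the last with edgeR too (adjusted p = 0.103). Without DM mouse 1 the last 2 were 0.97 and 0.67 and not called (adjusted p = 0.303 and 0.153). The amygdala library of that mouse held 1848 CPM of choroid plexus markers, and with the term for these markers DM against WT was 0.97 (adjusted p = 0.697) and *Kdm5c* loss 0.67 (adjusted p = 0.318).

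With spike-in scaling, which has larger errors, no *Plin4* call remained. The log2 fold changes were 1.58 ± 0.572 in *Kdm5c*-KO and 0.96 ± 0.571 in DM hippocampus and 1.15 ± 0.530 and 1.21 ± 0.529 in the amygdala, and *Kdm5c* loss gave 0.91 and 0.67. *Fam107a*, an actin-binding stress-induced gene, was called for *Kdm5c* loss in the hippocampus at 0.26 ± 0.081 (DESeq2, adjusted p = 0.0705). It stayed at 0.26 with edgeR and 0.25 ± 0.092 with the choroid plexus term but was not called (adjusted p = 0.220 and 0.378), nor in 11 of 16 fits without 1 library. With spike-in scaling it was 0.11 ± 0.376 (adjusted p = 1). *Fam107a* was also called in DM against WT hippocampus (0.44 ± 0.114, adjusted p = 0.0212), which became -0.11 with spike-in scaling, where the median of all genes was -0.51. That call was lost with edgeR (adjusted p = 0.226) and in 3 of 8 fits without 1 library.

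Among 16 chaperones of steroid receptors, 2 were called higher without *Kdm5c* in the hippocampus, beside the same 1.91% of all genes. They are the near-identical heat shock genes *Hspa1a* (log2 fold change 0.41 ± 0.112, DESeq2, adjusted p = 0.0179) and *Hspa1b* (0.54 ± 0.159, adjusted p = 0.0453), whose reads may be split between them with uncertainty. *Hspa1b* was lost with edgeR (adjusted p = 0.116) and in 5 of 16 fits without 1 library, and both were lost with spike-in scaling. Of 12 coregulators 1 was called, *Ncoa3*, at -0.28 ± 0.078 (adjusted p = 0.0288), among 2.39% of all genes called in either direction. It was kept in all 16 fits without 1 library, and lost with edgeR (-0.27, adjusted p = 0.106), the choroid plexus term (-0.23, adjusted p = 0.402) and spike-in scaling (-0.42, adjusted p = 1).

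Of 8 other receptors tested for *Kdm5c* loss in the hippocampus 2 were called higher, both at few counts, against 1.91% of all genes. *Avpr1b*, a vasopressin receptor, had hippocampal counts of 0.873 to 23.3 for WT mice, 3.49 to 8.91 for *Kmt2a*-HET mice, 3.37 to 50.6 for *Kdm5c*-KO mice and 8.12 to 37.8 for DM mice (DESeq2, adjusted p = 0.0718). The groups overlapped, and the log2 fold change was 1.78 ± 0.559. It stayed at 1.77 with edgeR and 1.80 ± 0.632 with the choroid plexus term, but was not called (adjusted p = 0.178 and 0.302), nor in 10 of 16 fits without 1 library. *Mc3r*, a melanocortin receptor, reached 32.5 in *Kdm5c*-KO mouse 1 and at most 7.66 in the other 15, with all 4 *Kmt2a*-HET libraries at 0 (adjusted p = 0.0939). The library of *Kdm5c*-KO mouse 1 is the one with the most striatal, hypothalamic and choroid plexus markers in the hippocampus. The fitted *Mc3r* log2 fold change of 3.35 ± 1.09 rests on these few counts and is no bound. The call was lost with edgeR (3.67, adjusted p = 0.191), spike-in scaling (3.07, adjusted p = 0.824) and the replicate block (3.22, adjusted p = 0.192). With the choroid plexus term the log2 fold change was 1.39 ± 1.07 (adjusted p = 1), and without *Kdm5c*-KO mouse 1 it was 2.57 ± 1.17, with no adjusted p. Of the other 15 fits without 1 library, 10 did not call it.

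Of 2 ligands and 8 steroid enzymes and transporters tested, 0 were called there by DESeq2, against 2.39% of all genes, and 1 ligand had an unadjusted p under 0.05. In the amygdala, against 1.65% of all genes, 0 genes of the 5 other lists were called for *Kdm5c* loss, and 1 ligand and 1 chaperone had an unadjusted p under 0.05. Over all genes, 2025 of up to 29841 reached that threshold in the hippocampus and 1593 of up to 30355 in the amygdala. Of 6 ligands tested in DM against *Kmt2a*-HET amygdala 1 was called, against 0.845% of all genes. It was *Adcyap1*, the precursor of the peptide PACAP, at -0.93 ± 0.277 (DESeq2, adjusted p = 0.0990). This was lost with edgeR (adjusted p = 0.282), the choroid plexus term (-0.71, adjusted p = 0.857), spike-in scaling and in 7 of 8 fits without 1 library.

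Between the regions, where 22.7% of all genes were called higher and 24.2% lower in the hippocampus, all 6 ligands and peptides tested were lower. The genes named from each list are those with the smallest adjusted p in a direction. *Avp*, encoding vasopressin, had 714 to 3375 normalised counts in amygdala libraries against 0.964 to 348 in hippocampal ones, and *Ucn3*, encoding urocortin 3, had 20.4 to 80.6 against 0 to 7.86, with 15 of 16 hippocampal libraries at 0. All 7 hypothalamic markers were lower in the hippocampus too, and the part of adjoining tissue was not tested. Of 12 coregulators 10 were higher and 0 lower, with *Nrip1* (0.87 ± 0.094, DESeq2, adjusted p = 3.49e-19) and *Ncoa1* (0.66 ± 0.076, adjusted p = 3.85e-17), and the list's median was 0.26. Of the 36 glucocorticoid-induced genes 14 were higher, among them *Zbtb16* (2.32 ± 0.123) and *Bcl6* (1.2 ± 0.10), and 7 were lower, with a median of 0.12. The lower ones included *Angptl4* (-0.96 ± 0.153) and *Cdkn1a* (-0.80 ± 0.128), which were at -0.32 and -0.06 and not called with spike-in scaling (adjusted p = 0.321 and 0.866).

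Over all genes 22.7% were higher and 24.2% lower in the hippocampus. Of 8 other receptors 2 were higher, *Avpr1b* and *Mc4r* (0.68 ± 0.142), and 4 were lower, among them *Avpr1a* (-3.12 ± 0.241) and *Esr1* (-2.04 ± 0.159). *Avpr1b* had at most 1.90 normalised counts in any amygdala library. *Mc3r*, also lower, had 18 to 68.8 normalised counts in amygdala libraries against 0 to 32.5 in hippocampal ones. Steroid enzymes and transporters gave 3 higher of 9, among them *Cyp7b1* (1.07 ± 0.069) and *Abcb1b* (0.86 ± 0.091), and 1 lower, *Akr1c14* (-0.46 ± 0.160), which became 0.17 with spike-in scaling. Chaperones gave 5 higher of 16, among them *Hspa1b* (1.04 ± 0.157) and *Hsp90ab1* (0.25 ± 0.038), and 4 lower, among them *Stip1* (-0.33 ± 0.050) and *Fkbp4* (-0.36 ± 0.059), which became 0.32 and 0.30 with spike-in scaling.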

How the data were processed

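Poly(A) RNA from microdissected amygdala and hippocampus of 16 mice was sequenced by the authors in paired-end, strand-keeping libraries, with ERCC spike-in RNA added. The authors aligned reads to mm10 with STAR 2.5.3a and counted them with Subread 1.5.0 (featureCounts), and used DESeq2 1.14.1. The deposited tables hold expected counts per gene and per transcript, not normalised. The tool that made the expected counts is not given in the sources used here. The tables list 53715 genes and 92 ERCC sequences, and 53620 genes took a symbol from GENCODE M21 (2156 under another version number). Groups came from the labels. Replicates were separate mice, and their counts differed by more than sampling noise (chi-square per gene 3.89 to 135 over 48 pairs).

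Expected counts were rounded and tested with DESeq2 1.42.0 in R 4.3.3 (Wald test, unshrunken fold changes, Benjamini-Hochberg adjustment over all genes, adjusted p under 0.1 called), with all 16 libraries of a region in a fit. *Kdm5c* loss and *Kmt2a* dose compare 8 with 8 mice across the other mutation, and the interaction asks whether the effects add up. Regions were compared in 1 fit of 32 libraries and 8 groups. Printed normalised counts use size factors of all 32 libraries, whereas genotype tests used those of their region. CPM scale each library to the same total of gene counts. Values per kilobase divide by the length of merged exons. Intervals are 95%. Alternatives were edgeR 4.0.16, TMM or ERCC size factors, a low-count filter (10 counts in 4 libraries), other thresholds, a replicate block, only the groups compared, libraries left out and, added after the data had been seen, a term for choroid plexus markers. Correlations used 100000 permutations within genotypes on log2 values with a pseudocount of 1. Likeness was computed over genes with a mean of at least 100 normalised counts. Scripts were tested on simulated data.

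Named genes were all 9 members in full, for each list of related genes those called in a genotype comparison (at most 3) and, between regions, the 2 with the smallest adjusted p in each direction, and the 3 genes most like each member, of which 2 are not reported here. The members and lists were chosen with earlier results of these data known. The replicate numbers do not pair genotypes (9 of 24 same-numbered pairs in each region had deviations correlated above 0.1), whereas the 2 regions of a mouse are paired by the labels (12 of 16 mice above 0.1, median 0.20). Promoter sequences came from RefSeq (GRCm38.p6), which held 8 of the 9 genes.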

Additional observations from a re-analysis of the deposited data

How the results depend on the processing

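Alternatives were run for 24 counts of members called. TMM size factors and the low-count filter changed none. With edgeR, 0 members were called for *Kdm5c* loss in the amygdala, 0 for *Kdm5c*-KO against WT in the hippocampus and 1 (*Sgk1*) for *Kdm5c* loss there. Spike-in scaling gave 0, 0 and 0 for these 3, and 3 and 2 members between the regions of *Kmt2a*-HET and DM mice. It turned *Tsc22d3* (0.30), *Stip1* (0.32), *Fkbp4* (0.30) and *Akr1c14* (0.17) between regions and *Fam107a* in DM hippocampus (-0.11). ERCC reads were 0.0503 to 0.511% of a library, and this scaling moved the median of all genes by 0.65 between regions, by -0.13 for *Kdm5c* loss in the hippocampus and by -0.15 in the amygdala. A threshold of 0.05, independent filtering off and the choroid plexus term each left 0 members in *Kdm5c*-KO against WT hippocampus. With that term 1 member was called for *Kdm5c* loss in the hippocampus (*Sgk1*) and 1 in DM against *Kmt2a*-HET amygdala (*Hsd11b1*, -0.93, adjusted p = 0.0747). Without the libraries numbered 1, *Hsd11b1* was the 1 member called in *Kdm5c*-KO against WT amygdala (-0.90, adjusted p = 0.0723) and *Sgk1* the 1 for *Kdm5c* loss in the hippocampus. With only the groups compared, *Hsd11b1* was the 1 member called in DM against WT (0.46, adjusted p = 0.055) and in DM against *Kdm5c*-KO hippocampus (0.60, adjusted p = 0.0599). The cause of these changes was not tested.

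The replicate block changed 1 count within regions, *Kmt2a* dose in the hippocampus, from 0 to 1 (*Hsd11b1*, 0.51, adjusted p = 0.0705). With the mouse as a block, which the labels pair, 5 members were called between the regions of WT mice. It moved no other count by over 1.5 times.

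Leaving out 1 library gave 0 to 1 members for *Kdm5c* loss in the amygdala, 1 to 2 for that loss in the hippocampus, 0 to 2 for *Kdm5c*-KO against WT hippocampus, 0 to 1 for DM against *Kdm5c*-KO hippocampus (*Crhbp*, -0.56, adjusted p = 0.0979 without DM mouse 1) and 0 to 1 for *Kmt2a* dose there. The member called for *Kmt2a* dose was *Hsd11b1* or, without DM mouse 1, *Crhbp* (DESeq2, adjusted p = 0.0630). Between regions it gave 2 to 3 in WT, 4 to 6 in *Kmt2a*-HET, 4 to 5 in *Kdm5c*-KO and 4 to 5 in DM mice, and 7 in all 16 fits of the mean. *Crhbp* was called in WT without mouse 1. *Crhr2* was lost in *Kmt2a*-HET without mouse 3 (adjusted p = 0.123) and called in WT without mouse 3 (adjusted p = 0.0526) and in DM without mouse 2 (adjusted p = 0.0836). *Fkbp5* was lost in WT without mouse 1, 2 or 3 and in *Kdm5c*-KO without mouse 2 (adjusted p = 0.201). *Nr3c1* was called in *Kdm5c*-KO against WT hippocampus without WT mouse 1 (adjusted p = 0.0998). With 4 mice a group, intervals of most members span a log2 unit or less, and *Crhr2* had the fewest counts of the 9.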
